A study of Drosophila melanogaster with 3 samples.

Results

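Aminoacyl-tRNA synthetase genes of Drosophila melanogaster were examined for binding of rgr (regular), a protein assayed here as a transcription factor. The genes were taken from the Ensembl annotation by their symbols, a 3-letter amino acid code, or a pair of codes, followed by RS, with the suffix -m for the mitochondrial enzyme. This rule found 33 of 13968 protein-coding genes, 18 cytoplasmic and 15 mitochondrial. The rule uses no measured value, but the gene family was chosen with earlier results of these data known. It leaves out alpha-PheRS and beta-PheRS, the subunit genes of the cytoplasmic phenylalanine enzyme, which are described further on. The binding data came from chromatin immunoprecipitation and sequencing with an antibody against GFP on whole wandering larvae of the third instar, males and females pooled, of a transgenic line that carries rgr fused to eGFP at its carboxyl terminus. All 3 biological replicates carried the same fusion and formed 1 group, so there was no untagged or untreated group to compare with. Each replicate mixes all larval tissues, and the labels, which call the line an insertion targeting rgr, do not say whether untagged rgr is also made. They do not say whether the replicates came from separate cultures.

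Aminoacyl-tRNA synthetases join each amino acid to its tRNA, the step that supplies charged tRNA to ribosomes. The cytoplasmic enzymes feed the translation of nuclear mRNAs. Nuclear genes also encode the enzymes that are imported into mitochondria and charge the tRNAs of the mitochondrial genome. The symbol rule found no -m gene for glutamine, glycine, histidine, lysine or threonine. Genes without -m are called cytoplasmic here, whether or not their products also act in mitochondria. In animals some of the cytoplasmic enzymes are held together by scaffold proteins, and GluProRS carries the glutamate and the proline enzyme in one polypeptide.

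Peak lists were deposited for every replicate and for their pool, and the authors derived from these a thresholded list of 8551 peaks, called optimal below. The replicate lists and the pooled list are relaxed lists of 30000 entries each, titled peaks and background, so a low-ranked entry may be background. The lists give a signal for each peak and no read counts, so depth is unknown. This signal is a value of the authors with no stated scaling between lists, and it only ranks peaks within a list here, with rank 1 the strongest. A gene has a promoter peak where an optimal summit lies at most 500 bp from one of its annotated starts. Positions are in dm6.

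Most cytoplasmic synthetase genes and few mitochondrial ones carried a promoter peak. A promoter peak stood at 13 of 18 cytoplasmic genes (72.2%, exact 95% binomial interval 46.5% to 90.3%) and at 3 of 15 mitochondrial genes (interval 4.33% to 48.1%). Of all protein-coding genes, 29.0% had one. The background thus lay inside the mitochondrial interval and below the cytoplasmic one. The intervals cover counting error over genes only. Over the 33 genes together the share was 48.5%. These are descriptions of a fixed list of genes chosen with earlier results of these data known, and no test was made. Adding alpha-PheRS and beta-PheRS, which had no promoter peak, lowered the cytoplasmic share to 13 of 20 genes (65.0%).

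The order of the classes was the same in each replicate. When each relaxed list was shortened to its 8551 strongest entries, summits stood at the promoters of 15, 12 and 11 cytoplasmic genes in replicates 1, 2 and 3. Mitochondrial genes had 4, 3 and 4. The background was 30.9%, 29.4% and 29.5% of all protein-coding genes in the same lists. The cytoplasmic share was thus 70.4% ± 11.6 (SD, n = 3) and the mitochondrial share 24.5% ± 3.87 (SD, n = 3), against 29.9% ± 0.839 (SD, n = 3) over all genes. The lowest cytoplasmic share, 61.1% in replicate 3, was above the highest mitochondrial share of 26.7%. The file listing names 1 and the same further input for all replicate lists, read here as their control.

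**Figure D1:**
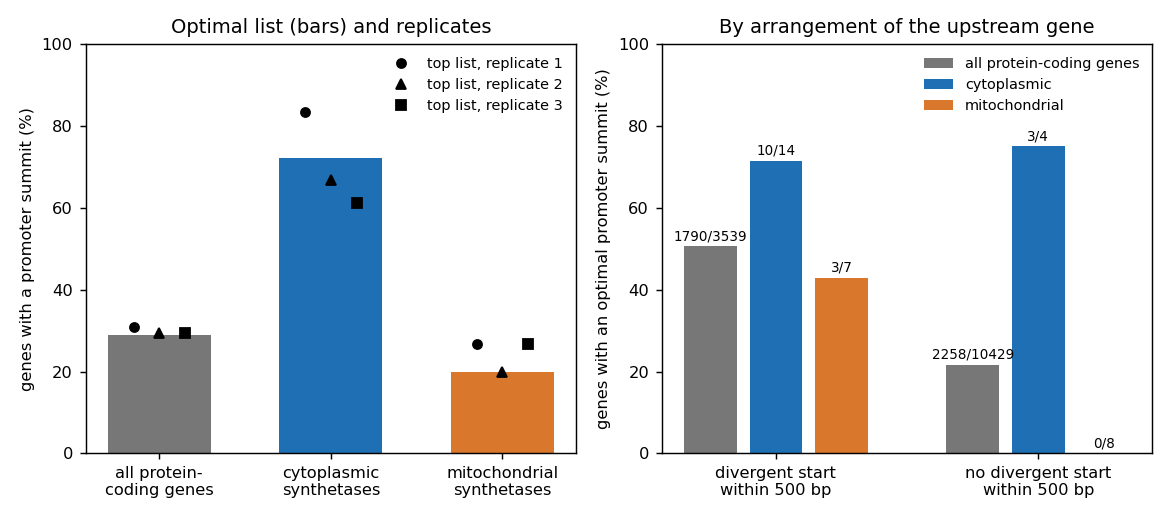
Shares of genes with a summit within 500 bp of a start, in percent. Left, bars give the optimal list and points the 8551 strongest entries of each replicate. Right, bars give the optimal list, with genes divided by whether a protein-coding gene on the opposite strand starts within 500 bp upstream, and the counts above the bars. Cytoplasmic synthetases stand at 72.2%, above the 29.0% of all genes, and the 3 of 15 mitochondrial ones below it.

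The strongest promoter peak was at SerRS, which encodes the cytoplasmic seryl-tRNA synthetase (2L:3035493-3037403, minus strand). Its summit at 3037360 had a signal of 939 and rank 399 in the optimal list, and ranked 274, 460 and 622 in replicates 1, 2 and 3. It was the only strongest summit of a synthetase gene that lay downstream of the gene's nearest annotated start, 43 bp into the 5′ UTR. The start of CG17260, on the opposite strand, was 51 bp from this summit, so the lists cannot assign it to SerRS alone. The peak is high in all 3 replicates, and every other synthetase peak ranked below it in each of them.

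IleRS, for isoleucine (3L:22288665-22292810, plus strand), followed with a signal of 705 at 22288506, 159 bp upstream of its start, and ranks 768, 741 and 888. GluProRS (3R:23952136-23958391, minus strand) had a signal of 664 at 23958530, 139 bp upstream, and ranks 784, 918 and 752. These ranks differ little between replicates, and their order changes, with IleRS ahead of GluProRS in replicates 1 and 2 and behind it in replicate 3. ThrRS, for threonine (2L:12103751-12107170, plus strand), had a signal of 395 at 12103641, 110 bp upstream, and ranks 2246, 1877 and 1927.

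AsnRS, for asparagine (2L:19129469-19131954, minus strand), had a pair of promoter peaks. The stronger (signal 362) lay at 19132000, 46 bp upstream, at ranks 2450, 2318 and 2111. The weaker (166) lay at 19132203, 249 bp upstream, and was uneven, at ranks 16060, 6514 and 5810. AlaRS, for alanine (2L:8378262-8381764, minus strand), had a signal of 317 at 8381787, 23 bp upstream of the more distal of its starts. Its rank was 4705 in replicate 1 and 2086 in replicate 2, while replicate 3 had no summit within 100 bp and one at rank 1951 that lay 155 bp away.

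Sequence is shown for these 6 genes, to set the summit beside the promoter words nearest to it. They have the highest signal among the genes whose promoter or summit window holds a word searched for, leaving out 1 chromosome arm of which no sequence is given. The words were the DRE TATCGATA, bound by DREF and BEAF-32, the M1BP word GGTCACAC, Ohler motif 7 as CATCNCTA, the TATA word TATAAA, the E-box CACGTG, and TGATGCAA, a word of the kind bound by amino acid response factors of the ATF4 family. Each stretch runs 5′ to 3′ on the gene's own strand of the RefSeq copy of dm6, from the summit to the nearest word with 20 bases on each side, and capitals mark a word on either strand. SerRS is limited to 30 bases around its summit, which lies in transcribed sequence. The summit is base 16 in SerRS, 21 in IleRS, 21 in GluProRS, 81 in ThrRS, 89 in AsnRS and 29 in AlaRS. The stretches are at chr2L:3037346-3037375 (SerRS), chr3L:22288486-22288650 (IleRS), chr3R:23958364-23958550 (GluProRS), chr2L:12103561-12103661 (ThrRS), chr2L:19131980-19132088 (AsnRS) and chr2L:8381767-8381815 (AlaRS).
SerRS: aaaaacatTATAAAattcttgggttaactt
IleRS: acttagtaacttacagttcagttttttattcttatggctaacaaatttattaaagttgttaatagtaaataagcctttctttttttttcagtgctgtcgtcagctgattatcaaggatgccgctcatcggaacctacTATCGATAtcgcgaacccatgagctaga
GluProRS: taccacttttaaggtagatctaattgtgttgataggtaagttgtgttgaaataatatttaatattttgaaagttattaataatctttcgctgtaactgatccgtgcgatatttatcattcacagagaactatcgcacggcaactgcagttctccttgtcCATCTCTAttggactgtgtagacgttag
ThrRS: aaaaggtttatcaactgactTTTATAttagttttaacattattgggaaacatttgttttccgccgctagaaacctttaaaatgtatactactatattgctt
AsnRS: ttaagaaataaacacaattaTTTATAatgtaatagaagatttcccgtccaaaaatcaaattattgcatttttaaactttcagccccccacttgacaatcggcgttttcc
AlaRS: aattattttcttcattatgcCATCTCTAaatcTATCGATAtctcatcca

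In these stretches the words stood at different distances from the summits. A match is a description of the letters, not a site or a cause. In AlaRS a motif 7 word and a DRE lay on either side of the summit, centred 4 bp upstream and 8 bp downstream of it. In IleRS the DRE was 120 bp downstream of the summit, 42 bp before the gene's start, and in GluProRS the motif 7 word began at the start itself, 142 bp from the summit. The 6 stretches held from 64.9% A or T in IleRS to 80.0% in SerRS, against a median of 62.0% in all protein-coding promoters. Each stretch was drawn to include a word, and words such as TATAAA hold only A and T. Their content is thus in part set by this choice. Over the strongest promoter peak of each gene, the 100 bases around the summit were 67.3% A or T at the median in the 13 cytoplasmic genes and 57.4% in the 3 mitochondrial genes, against 63.4% in all 4048 genes with a promoter peak. The median over the 16 synthetase genes together was 62.4%.

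Of the 6 words searched, only the TATA word, which is common in all promoters, stood in more than 5 synthetase promoters. In windows from 250 bp before to 50 bp after the canonical start, the DRE was present in 5 of 33 genes (AlaRS, ArgRS, IleRS, TrpRS and PheRS-m), against 8.94% of all protein-coding promoters. TrpRS and PheRS-m held it without a promoter peak, 72 bp upstream of the start and at the start. The M1BP word stood in GlnRS, AsnRS-m and ProRS-m (7.52% of all promoters), none of which had a promoter peak. Motif 7 stood in AlaRS and GluProRS (6.31%), which both had one. Over all genes with a promoter peak, the DRE was in 13.5%, the M1BP word in 11.1% and motif 7 in 11.6%. The TATA word was in 18 genes (45.3% of all promoters), the E-box in GlnRS and LeuRS-m (4.25%), and the amino acid response word in none of the 33 (0.780%). Around the summits themselves, within 50 bp, the DRE and motif 7 were found at AlaRS, the M1BP word at ValRS, and the TATA word at AlaRS, AspRS, SerRS and CysRS-m.

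The other 7 cytoplasmic genes with a promoter peak had signals from 134 to 281, and the lowest optimal signal was 123. ValRS, for valine (2R:13198850-13202709), had 281 at 13198381, 469 bp upstream, at ranks 3635, 3170 and 2101. AspRS, for aspartate (2R:12877004-12883168), has 3 annotated starts, and its 2 promoter peaks lay inside the gene, with signals of 279 and 263 at 322 and 117 bp upstream of an internal start. Nmda1, an NMDA receptor subunit gene on the opposite strand, starts near both. The stronger of these ranked 2859 and 3506 in replicates 1 and 2 and had no summit within 100 bp in replicate 3. MetRS, for methionine, and GlyRS, for glycine, both had a signal of 218, at 138 and 47 bp upstream. GlyRS varied more between replicates, with ranks 4011, 7901 and 2674 against 3820, 5340 and 5387 for MetRS. Replicate 2 also had a further GlyRS promoter entry at rank 7107.

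The 3 weakest were CysRS, ArgRS and LysRS, for cysteine, arginine and lysine. CysRS (signal 154, 51 bp upstream) ranked 5666, 9701 and 7178. ArgRS (147, 231 bp upstream) ranked 8920 and 14612 in replicates 1 and 2, where replicate 2 had a further promoter entry at rank 7273, and had no summit within 500 bp of its start in replicate 3. LysRS (134, 13 bp upstream) ranked 8370, 9161 and 8741. These were the only genes with a promoter peak that were missing from the 8551 strongest entries of 1 or more replicates, with CysRS in 2 of 3 such lists and ArgRS and LysRS in 1 of 3.

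The 3 mitochondrial peaks were matched in every replicate. CysRS-m (2R:14159096-14161262, minus strand) had a signal of 456 at 14161408, 146 bp upstream, and ranks 1795, 1627 and 1534. ArgRS-m (3R:7887045-7890150, plus strand) had 404 at 7886923, 122 bp upstream, and ranks 2301, 1522 and 2697. LeuRS-m (3L:4825853-4829038, plus strand) had 232 at 4825747, 106 bp upstream, and ranks 3697, 3797 and 8215, the last close to the end of the shortened list. The median signal of these 3 was 404, that of the 13 cytoplasmic genes 281, and that of all 4048 genes with a promoter peak 279. All 3 signals lay within the range of the cytoplasmic ones, from 134 to 939.

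**Figure D2:**
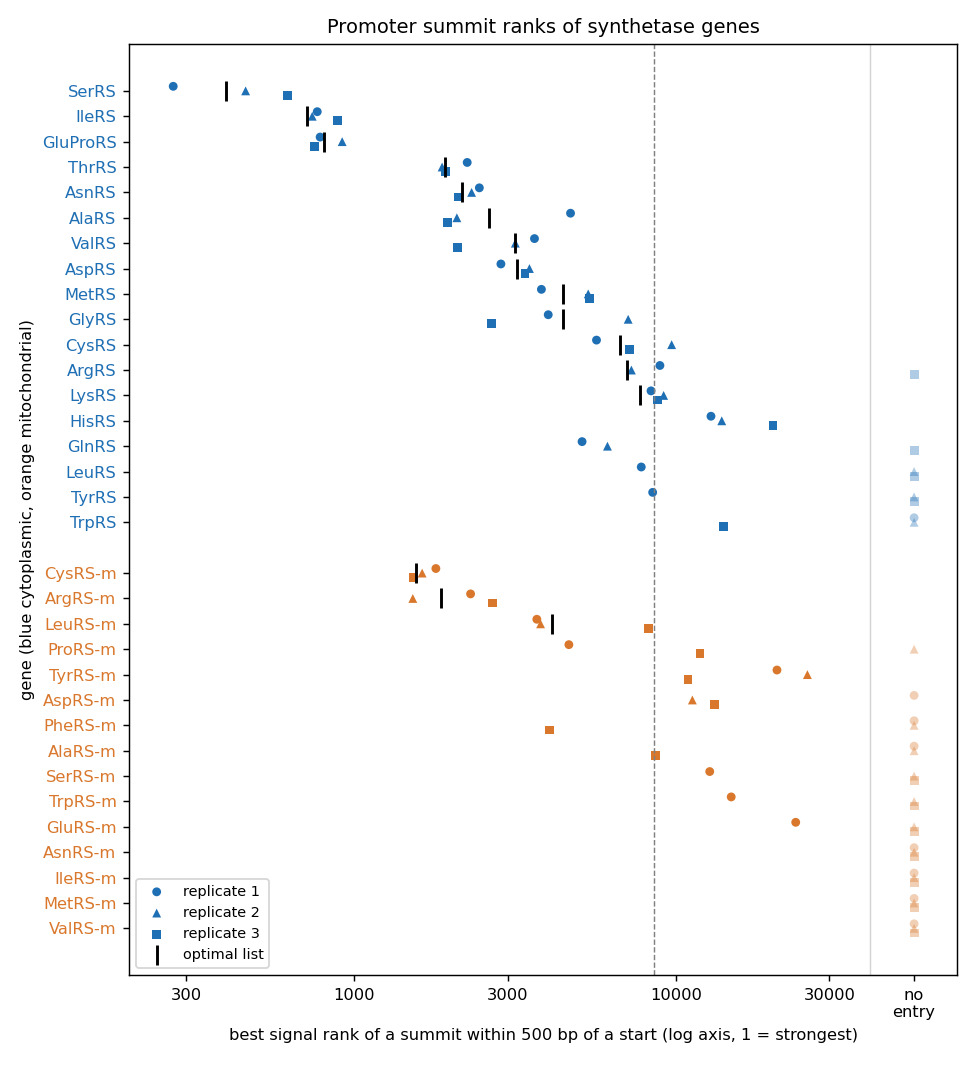
Best signal rank of a summit within 500 bp of a start for each of the 33 genes (log axis, 1 = strongest), with 1 symbol per replicate and a black bar for the optimal list. Points at the right edge have no entry, and the dashed line marks rank 8551. SerRS, IleRS and GluProRS lead in all 3 replicates, while AsnRS-m, IleRS-m, MetRS-m and ValRS-m have no entry in any.

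In all, 18 summits stood at the promoters of the 16 genes, and 51 of the 54 possible matches to a replicate summit within 100 bp were found. All 3 missing matches were in replicate 3, at AlaRS, ArgRS and the stronger AspRS peak. Matched ranks varied most at GlyRS and at the weaker AsnRS peak, and no gene's matched ranks differed by more than 4 times. The optimal list was derived from the same replicates, so matches follow in part from that choice.

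The 17 genes without a promoter peak were mostly without any entry in the pooled list. Of these only HisRS (rank 16967, 469 bp downstream of the start) and TyrRS-m (rank 23696, at -177 bp) had one within 500 bp. The pooled list thus held 18 of 33 synthetase promoters, 14 cytoplasmic and 4 mitochondrial, and 45.8% of all promoters of protein-coding genes. Of the genes with a pooled entry, 16 of 18 synthetase genes (88.9%) were in the optimal list, against 63.3% of all such genes.

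Cytoplasmic genes without a promoter peak were GlnRS, HisRS, LeuRS, TrpRS and TyrRS, for glutamine, histidine, leucine, tryptophan and tyrosine. GlnRS came closest, with summits 37 and 45 bp upstream at ranks 5110 and 6128 in replicates 1 and 2, none in replicate 3 and none in the pooled list. LeuRS and TyrRS had an entry in replicate 1 alone, at ranks 7805 and 8469. HisRS had entries in all 3 replicates, at best ranks of 12855, 13885 and 20026, and TrpRS in replicate 3 alone, at rank 14063. Entries of 1 replicate that the pooled list lacks are reported as listed and not as binding.

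Among the 12 mitochondrial genes without a promoter peak, AsnRS-m, IleRS-m, MetRS-m and ValRS-m had no entry in any replicate. ProRS-m was listed in replicates 1 and 3 (ranks 4650 and 11881) and PheRS-m in replicate 3 (rank 4043). AspRS-m was listed in replicates 2 and 3 (11252 and 13166) and TyrRS-m in all 3 (20613, 25628 and 10903). AlaRS-m was listed in replicate 3 (8637), and SerRS-m (12741), TrpRS-m (14857) and GluRS-m (23573) in replicate 1. No gene of this group had an entry among the 8551 strongest in more than 1 replicate. In these genes the nearest optimal summit was between 2630 bp (SerRS-m) and 18075 bp (MetRS-m) from a start, and in the cytoplasmic genes without a promoter peak it was between 3110 bp (GlnRS) and 20021 bp (LeuRS). The median over all 15 mitochondrial genes was 3748 bp, against 4058 bp over all protein-coding genes.

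**Figure D3:**
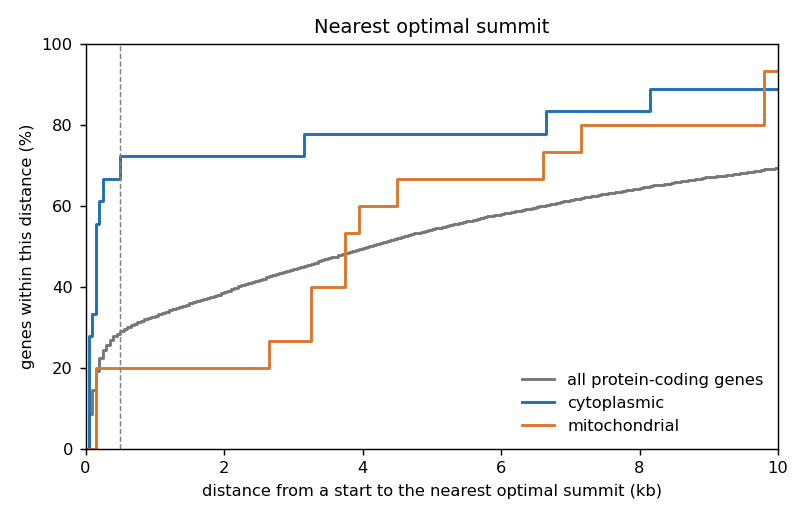
Percent of genes whose nearest optimal summit lies within the distance on the x axis (kb) of an annotated start, with the dashed line at the promoter limit of 500 bp. The cytoplasmic curve reaches 72.2% within 500 bp and the mitochondrial curve stays at 3 of 15 genes to beyond 2 kb, with 29.0% of all genes within 500 bp.

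For 12 amino acids the annotation holds a cytoplasmic and a mitochondrial gene of the same name. In 7 of these, Ala, Asn, Asp, Ile, Met, Ser and Val, the cytoplasmic gene alone had a promoter peak. The strongest of these peaks was for serine, with rank 399 at SerRS, near the start of CG17260 too, and no pooled entry at SerRS-m. Isoleucine followed, with rank 713 at IleRS and no entry in any list at IleRS-m. Both genes had one for arginine and cysteine. There the peak counted for the mitochondrial gene had the higher signal (404 against 147 for arginine and 456 against 154 for cysteine). For leucine the mitochondrial gene alone had a peak, and for tryptophan and tyrosine neither did. GluProRS had a peak of rank 805, and neither GluRS-m nor ProRS-m had one. The strongest summits counted for ArgRS, AspRS, GluProRS, MetRS, ValRS, CysRS-m and LeuRS-m lay nearer to the start of another gene. These pairs therefore compare summits that the lists cannot assign to the synthetase gene.

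Many of these summits lay between genes that start back to back. Of the 16 genes, 14 had their strongest summit within 500 bp of the start of another gene, always on the opposite strand, and only AlaRS and CysRS did not. For 7 genes the neighbour's start was nearer to the summit than the synthetase's own. The summit at CysRS-m was 22 bp from the start of O-fut1, a protein O-fucosyltransferase gene of the Notch pathway, and 146 bp from that of CysRS-m. The summit counted for ValRS was 44 bp from Kdm4B, a histone demethylase gene, and that of LeuRS-m was 60 bp from Dhc64C, the cytoplasmic dynein heavy chain gene. At GluProRS the distances were nearly equal, 121 bp to the clathrin adaptor gene AP-1sigma and 139 bp to GluProRS. The others of these 7 were ArgRS with CG8578, AspRS with Nmda1 and MetRS with CG15084. At SerRS its own start was slightly nearer to the summit, at 43 bp against 51 bp for CG17260. The peak lists cannot assign a summit between such starts to one of the genes. The same counts over all genes with a promoter peak are not given here, so such shared summits are not read as particular to synthetase genes.

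**Figure D4:**
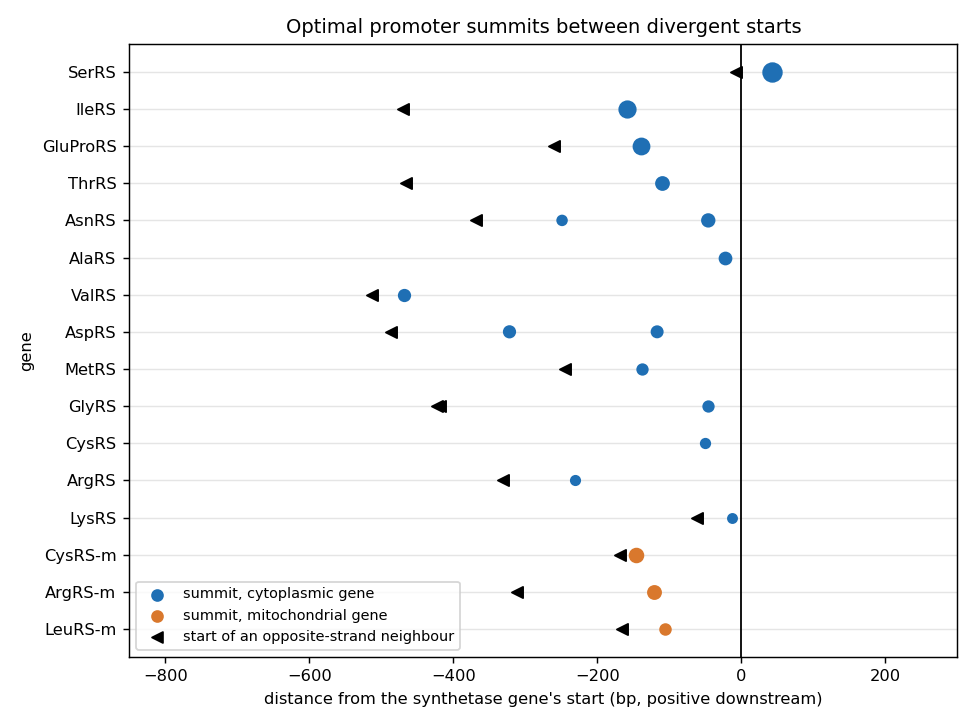
Positions of the 18 optimal promoter summits relative to the nearest annotated start of each synthetase gene (bp, positive downstream), with larger points for higher signal. Triangles mark starts of opposite-strand genes within 500 bp of the strongest summit. All summits but that of SerRS lie upstream of that start, which for AspRS is an internal one, and 14 of the 16 genes have a triangle.

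The arrangement of the neighbouring gene differed between the classes and, over all protein-coding genes, went with the peaks. A protein-coding gene on the opposite strand started within 500 bp upstream of 14 of 18 cytoplasmic genes (77.8%), 7 of 15 mitochondrial genes (46.7%) and 25.3% of all protein-coding genes. Over all genes, 50.6% of those with such a neighbour had a promoter peak, against 21.7% of those without. Among genes with such a neighbour, 10 of 14 cytoplasmic and 3 of 7 mitochondrial genes had a peak, including AspRS, whose peaks lay at an internal start and not between it and its upstream neighbour Lfg. Among genes without one, the counts were 3 of 4 cytoplasmic genes, which were AlaRS, CysRS and ValRS, and 0 of 8 mitochondrial genes. ValRS falls here only because its neighbour Kdm4B starts 513 bp upstream, just past the limit. The ValRS summit was 44 bp from the Kdm4B start and 469 bp from that of ValRS. The cytoplasmic shares with a peak were close, at 71.4% with such a neighbour and 75.0% without, the latter on 4 genes. The order of the classes was the same in both arrangements, on few genes, and the part of the arrangement in the difference between the classes was not tested. When each summit was counted only for its nearest gene start, an alternative chosen after seeing the data, 8 of 18 cytoplasmic genes and 1 of 15 mitochondrial genes (ArgRS-m) kept a peak, against 22.3% of all protein-coding genes. The exact 95% interval of 8 of 18 genes, 21.5% to 69.2%, includes that background, so the cytoplasmic interval no longer lay above the background under this count.

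Summits lay mostly upstream of the start, as at other genes with a promoter peak. Positions are from the nearest annotated start of a gene, which for AspRS is an internal one. The strongest summit was upstream of the start in 15 of 16 synthetase genes (93.8%) and in 81.1% of all genes with a promoter peak, with a median of 116 bp and 101 bp upstream. It lay from 20 to 160 bp upstream in 11 of the 16 (68.8%), against 42.6% of all such genes. These bounds were set after the positions were seen. The difference is thus in part built in and is not read as particular to synthetase genes. The median rank of the 16 summits was 2888.5, and that of all genes with a promoter peak 3200. Gene lengths of the classes overlapped widely, from 1878 to 6256 bp for cytoplasmic and from 1595 to 10949 bp for mitochondrial genes, with medians of 3090 and 2727 bp.

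Other genes of tRNA charging and handling were taken from lists by name, of which 22 of 23 names were matched and 10 had a promoter peak, against 29.0% of all protein-coding genes. Of the synthetase genes outside the symbol rule, alpha-PheRS and beta-PheRS had no pooled entry at their promoters, and Slimp, a mitochondrial relative of seryl-tRNA synthetase in flies, had a peak (signal 245, 101 bp upstream, ranks 3013, 4991 and 5500). Of the scaffold proteins of the synthetase complex, AIMP2 had a peak (205, 25 bp downstream) and AIMP1 and AIMP3 had none. Of the subunits of the mitochondrial amidotransferase that makes glutaminyl-tRNA, GatA had a peak (685, 100 bp upstream, ranks 715, 762 and 971), and GatB and GatC had none. The GatA peak thus had a higher signal than any mitochondrial synthetase promoter peak. Starts of other genes near the summits of these related genes are not given here, so the peaks are not assigned to the named gene alone.

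Of 9 genes of tRNA maturation and modification, 5 had a promoter peak, beside the same 29.0% of all genes. Counts this small were not tested against it. Neighbouring starts are not given for these genes either, so their peaks are not assigned to the named gene alone. The strongest was Tcs5, a kinase gene of the complex behind the threonylcarbamoyl modification of tRNA, with a signal of 3526 at rank 8 (ranks 9, 9 and 13 in the replicates), above every synthetase gene. Peaks were also present at RNaseZ, the tRNA 3′ processing nuclease gene (336), the tRNA methyltransferase gene Nsun2 (169) and La, whose product binds the ends of new tRNAs (129). The La summit was weak in replicate 3, at rank 22521 against 9410 and 6998. Elp3, Mt2, Tcs3 and Tgt had none. A further list held genes of the amino acid response and genes that share part of its pathway. Of these, crc, the fly ATF4 gene, had 3 promoter peaks (strongest 241, ranks 5188, 3065 and 6479). Thor, which encodes the translation repressor 4E-BP, had one (371, 34 bp upstream, ranks 2441, 1902 and 3319). The kinase gene PEK had only a pooled entry at rank 8956, just below the optimal list, and the kinase gene Gcn2 had none.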

How the data were processed

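The authors deposited peak lists made from chromatin of 3 biological replicates. Per the file listing, replicate and pooled lists came from the alignments and 1 shared further input, and the optimal list on dm6 from the replicate and pooled lists, by irreproducible discovery rate. Its threshold, the software for alignment and that for peak calling were not given in the sources used here. The deposited peak signal was used as the authors' own value, for ranks within a list. Lists on dm3 were not used here. Replicates are 3 samples that the labels number as biological replicates.

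Genes and starts came from Ensembl release 115 on the main chromosomes and sequence from RefSeq of the same assembly, and 33 of 33 genes had the same span in both. A summit is the start plus the offset of the peak, written 1-based. Replicate summits were matched within 100 bp. Intervals are exact binomial at 95% and cover counting error over genes only. The members, lists and words were chosen with earlier results of these data known. Named are all members with their values, in full for the 5 strongest of each class, with divergent neighbours. Values of 1 related gene are not reported here. On planted summits the assignment recovered 200 of 200 genes. Python 3.11.15, numpy 2.4.6, pandas 2.3.3, scipy 1.17.1 and matplotlib 3.10.9 were used.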

Additional observations from a re-analysis of the deposited data

How the results depend on the processing

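At 250 bp, at 1000 bp, with canonical starts alone and in the strongest entries of each replicate, counts of genes with a promoter peak were 11 to 15 cytoplasmic and 3 to 4 mitochondrial. Among the 4275 strongest optimal peaks, 8 cytoplasmic and 3 mitochondrial genes had one. Counting each summit only for its nearest start, chosen after seeing the data, left 9 genes, 8 cytoplasmic and 1 mitochondrial, and the cytoplasmic interval then included the background. Keeping only optimal peaks found in both other replicates left 9 to 10 cytoplasmic and 3 mitochondrial genes and 22.5% to 24.1% of all genes, whichever replicate was left out. The share of all protein-coding genes was 24.3% at 250 bp, 32.8% at 1000 bp, 25.9% with canonical starts, 18.2% with those 4275 peaks, where the 3 of 15 mitochondrial genes were not below it, 22.3% by nearest start and 30.9% in replicate 1. Within 50 bp of the summit in place of the promoter window, the DRE, the M1BP word and motif 7 were each at 1 gene, the TATA word at 4 and the E-box at 0. The median rank was 2626 at 250 bp and 2397.5 at 1000 bp, and 44 and 53 replicate matches were found within 50 and 200 bp. Related genes with a peak numbered 8 at 250 bp and 10 at 1000 bp. No paired analysis was possible because the samples form 1 group. Without read counts, a missing entry is not shown to be missing binding.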
